A study of Anas platyrhynchos with 2 samples.

Results

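Genes annotated with 1 exon were examined on the larger autosomes of the Fujian Longyan Shan-ma duck (Anas platyrhynchos), whose genome was assembled nearly from end to end. A gene was taken if the count tables list exactly 1 exon for it and it lies on a numbered chromosome whose last gene ends at 10 Mb or beyond. This gave 117 genes of the 11383 in the tables, on 23 of 39 autosomes, and 1.03% of all genes. They were set beside the 447 genes with 2 exons and all 8941 genes of the same 23 chromosomes. Chromosome 25, whose last gene ends at 10.03 Mb, entered with 1 single-exon gene, whereas the largest autosome left out ended at 9.36 Mb and carried 2. The 21 single-exon genes of the 16 smaller autosomes had a median of 4.99 RPKM.

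Expression was measured by RNA-seq in 2 libraries, each without a replicate. Library B was labelled with 9 organs, namely brain, eye, heart, lung, kidney, spleen, ovary, muscle and skin, and library A with 5, namely stomach, intestine, liver, pancreas and blood. The series text describes 1 adult female and 1 adult male of the same source, testis replacing ovary in the male, and RNA of all tissues mixed in equal amounts. No treatment or genotype is labelled, the labels mention no testis and do not say which bird gave which library, and the sources thus leave the makeup of each library uncertain. Because genes carry no names in the tables, and 0 IDs matched a reference of 26024 duck genes, tissue markers could not be checked, and no gene is given a name or a function here.

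Most vertebrate genes are split by introns, which the spliceosome removes from the transcript, and splicing also aids export of the RNA from the nucleus. Genes without introns skip this step. They are known to include replication-dependent histones, many G-protein-coupled receptors such as the odorant receptors, and copies made by reverse transcription of a spliced RNA, which lose their introns and often the promoter of the parent gene. Which of the 117 genes belong to these kinds is not known from the files.

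Library B held 41792653 counted reads over all genes and library A 20047449. The single-exon genes received 130732 reads in library B, or 0.313% (95% interval 0.310 to 0.315), and 61068 reads in library A, or 0.305% (0.301 to 0.308). The 2-exon genes received 1.83% (1.82 to 1.84) in library B and 1.81% (1.80 to 1.82) in library A. Intervals are exact binomial or Poisson ones, computed from reads halved to pairs, and cover counting error only. Level means RPKM, the reads scaled to exon length and to the total of the library, averaged over both libraries. With 1 library per label, and since genes are not replicates of each other, no test was made and every comparison below is a description.

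Single-exon genes stood below 2-exon genes in level, and most of all at the low end of the range. Their median was 2.65 RPKM, against 4.57 RPKM in 2-exon genes and 9.56 RPKM in all genes of these chromosomes. The ratio of the medians, single-exon over 2-exon, was 0.581. At the upper quartile the levels were 8.25 RPKM in single-exon genes and 12.5 RPKM in 2-exon genes, a ratio of 0.659. At the lower quartile they were 0.374 RPKM in single-exon genes and 1.97 RPKM in 2-exon genes, a ratio of 0.190. In library B alone the medians were 2.27 RPKM for single-exon genes and 4.67 RPKM for 2-exon genes, and in library A they were 3.02 RPKM and 4.58 RPKM for the same groups.

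A level under 1 RPKM was found in 39 of 117 single-exon genes (33.3%), against 57 of 447 2-exon genes (12.8%) and 5.94% of all genes. A level under 0.1 RPKM was found in 13 single-exon genes (11.1%), against 3 of the 2-exon genes (0.671%). At the other end, 24 single-exon genes (20.5%) reached 10 RPKM, against 137 of the 2-exon genes (30.6%) and 48.4% of all genes. Only 1 single-exon gene (0.855%) exceeded 100 RPKM, where 23 of the 2-exon genes (5.15%) and 5.61% of all genes did. At least 10 reads in 1 or both libraries were counted for 101 single-exon genes (86.3%) and for 441 of the 2-exon genes (98.7%). With that minimum the ratio of the medians was 0.825.

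**Figure D1:**
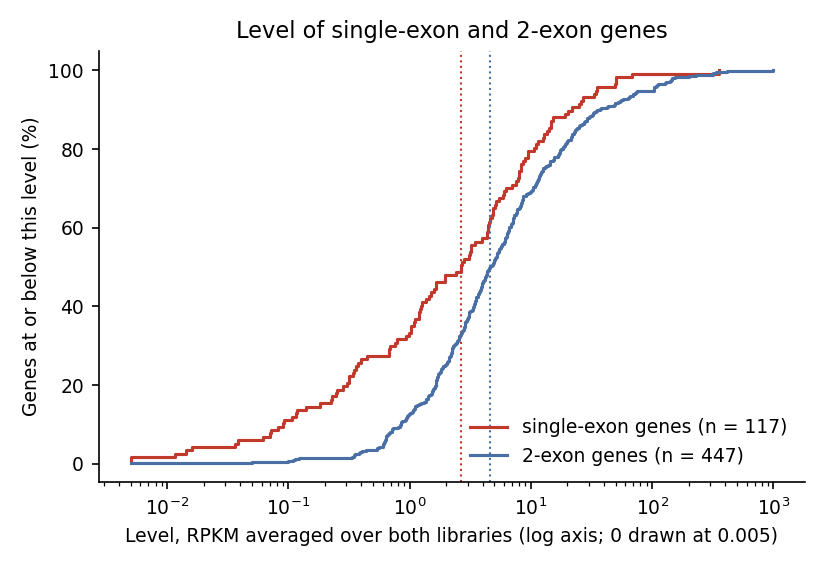
Cumulative share of genes (percent, vertical axis) at or below each level (RPKM averaged over both libraries, log axis, with 0 drawn at 0.005) for 117 single-exon and 447 2-exon genes. Dotted lines mark the medians, 2.65 and 4.57 RPKM, and at 1 RPKM the curves stand at 33.3% of single-exon genes and 12.8% of 2-exon genes.

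A single gene supplied 27.4% of the reads of the group in library B and 28.3% in library A. Apl_5G0001210, at 7913722 to 7916128 on the plus strand of chromosome 5, is an exon of 2407 bp. It had 35865 reads in library B, or 355 RPKM (350 to 361), and 17286 reads in library A, or 359 RPKM (352 to 367). It ranked 175 by level among all 11383 genes. The intervals of its shares were 27.1 to 27.8% in library B and 27.8 to 28.8% in library A. The first of the 2-exon genes held 5.94% and 6.28% of the reads of its own group in the same libraries. That gene had more reads, 45455 in library B and 22761 in library A, but its group of 447 genes is larger. The genes beside Apl_5G0001210 were not abundant. The gene before it, 6.04 kb away on the same strand with 2 exons, had 3.71 RPKM in library B and 3.95 RPKM in library A, and the gene after it, 10436 bp away with 10 exons, had 1.28 RPKM and 0.851 RPKM.

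The next gene by level was Apl_20G0002860, at 10994704 to 10996036 on the plus strand of chromosome 20, with 1333 bp. It had 3945 reads or 70.6 RPKM (67.5 to 73.7) in library B and 1772 reads or 66.5 RPKM (62.2 to 71.1) in library A. It lies 11673 bp beyond a gene of 5 exons on the same strand, which had 34.1 RPKM. With 357 RPKM as the level of the first gene and 68.6 RPKM as that of the second, the first stood apart from the rest.

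Of the other 8 genes among the 10 with the highest level, the third lies on chromosome 1 at 199572241 to 199573364 and had 48.8 RPKM in library B and 52.3 RPKM in library A. A further gene of chromosome 20, at 11509401 to 11511466 farther along than the one named above, had 49.0 RPKM in library B and 50.9 RPKM in library A. On chromosome 13 the gene at 12186238 to 12187261 had 51.5 RPKM in library B and 46.2 RPKM in library A. These 3 genes have exons of 1124, 2066 and 1024 bp, and their levels lay within a narrow band.

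On chromosome 2 the gene at 141588818 to 141592169 had 34.8 RPKM in library B and 35.7 RPKM in library A. Its nearest gene, 65.8 kb before it on the same strand, is also a single-exon gene and had 0.243 RPKM in library B and 0.204 RPKM in library A, from 10 and 4 reads. The gene at 10772253 to 10774707 on chromosome 12 had 35.6 RPKM in library B and 32.9 RPKM in library A. Chromosome 1 carried the eighth gene, at 54329001 to 54329999, with 35.1 RPKM in library B and 31.4 RPKM in library A. The last 2 of the 10 were at 2924342 to 2928381 on chromosome 5, with 28.6 RPKM in library B and 25.4 RPKM in library A, and at 131184788 to 131187346 on chromosome 2, with 26.0 RPKM and 25.8 RPKM.

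The sets of the 10 highest genes, and of the 20 highest, were identical when ranked by the RPKM of either library. The 10 highest lie on 6 chromosomes, and in 7 of the 10 the nearest gene had a lower level. Choosing genes by their high level itself makes a lower neighbour likely, so this count says little. The nearest gene lies on the same strand in 7 of the 10, with the single-exon gene downstream in 6 and upstream in 1. Among all 117 single-exon genes the nearest gene was on the same strand in 51.3%, against 51.7% of 2-exon genes. It was on the same strand with the single-exon gene downstream in 30.8%, against 29.1% of 2-exon genes. The 10 single-exon genes with the most reads held 55.4% (55.0 to 55.8) of the reads of the group in library B and 56.0% (55.5 to 56.6) in library A. Of the 5 genes with the most reads, 4 were also among the 10 of highest level. The other, at 24390036 to 24394619 on chromosome 9, had 4212 reads in library B and 1974 in library A on an exon of 4584 bp. The 10 first 2-exon genes held 27.8% of the reads of theirs in library B and 28.3% in library A. Since 10 genes are a larger part of 117 than of 447, the shares of both groups are not on an equal footing.

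At the low end, 2 single-exon genes were without a read in both libraries. They lie at 5857111 to 5858256 on chromosome 25 and at 5833396 to 5834135 on chromosome 33. A count of 0 still leaves an upper limit to the level, computed from read pairs like the other intervals. For the gene of chromosome 25 this limit is 0.154 RPKM in library B and 0.322 RPKM in library A. For the gene of chromosome 33, whose exon has 740 bp, it is 0.238 RPKM in library B and 0.499 RPKM in library A. A further 14 genes had reads, but fewer than 10 in each library. Reads in library B alone were found for 6 single-exon genes, with 2 to 8 reads, and for 0.351% of all 11383 genes. Reads in library A alone were found for 0 single-exon genes and for 0.0615% of all genes. Library B, with 41792653 reads against 20047449 in library A, was the deeper one.

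In exon length the single-exon genes resembled the 2-exon genes, with a median of 2560 bp against 2599 bp, and both lay under the 3444 bp of all genes. The range was 684 to 8919 bp in single-exon genes and 295 to 14812 bp in 2-exon genes. The length was a multiple of 3 in 31.6% of single-exon genes and 33.6% of 2-exon genes, so the models are not made of coding sequence alone. The 3 longest single-exon genes were at 995224 to 1004142 on chromosome 9, at 41525515 to 41533901 on chromosome 5 and at 11783253 to 11790259 on chromosome 12. The 8919 bp of the first carried 3.28 RPKM in library B and 3.11 RPKM in library A. The other two had 2.41 RPKM and 4.42 RPKM as means of the libraries. The shortest, 684 bp at 669958 to 670641 on chromosome 2, had 14.8 RPKM in library B and 14.6 RPKM in library A. Next in length were 712 bp on chromosome 1, described below, and the 740 bp on chromosome 33 that had no reads.

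The medians of single-exon and 2-exon genes lay apart among shorter genes and close together among the longest. The 39 shortest single-exon genes, of 684 to 1816 bp, had a median of 1.02 RPKM, and the 142 2-exon genes up to 1877 bp had 4.36 RPKM. Some of those 2-exon genes are shorter than any single-exon gene, down to 295 bp. Median lengths in this class were 1146 bp in single-exon and 1230 bp in 2-exon genes. In the middle class, where 39 single-exon genes have 1907 to 3364 bp, the medians were 1.66 RPKM in single-exon genes and 4.92 RPKM in 2-exon genes. In the longest class, from 3366 bp, they were 4.31 RPKM in 39 single-exon genes and 4.57 RPKM in 2-exon genes. Levels under 1 RPKM made up 48.7%, 30.8% and 20.5% of single-exon genes from the shortest to the longest class, and 19.7%, 13.6% and 6.06% of 2-exon genes. Among genes with at least 10 reads, a minimum that short genes reach only at a higher RPKM, the shortest class had 4.62 RPKM in 28 single-exon and 4.76 RPKM in 136 2-exon genes. This minimum itself removes the lowest levels. The middle class then had 2.31 RPKM in single-exon genes and 4.92 RPKM in 2-exon genes. Spearman's rho of level with length was 0.191 across the 117 single-exon genes, -0.032 across 2-exon genes and -0.243 across all genes, where genes share libraries and depth.

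**Figure D2:**
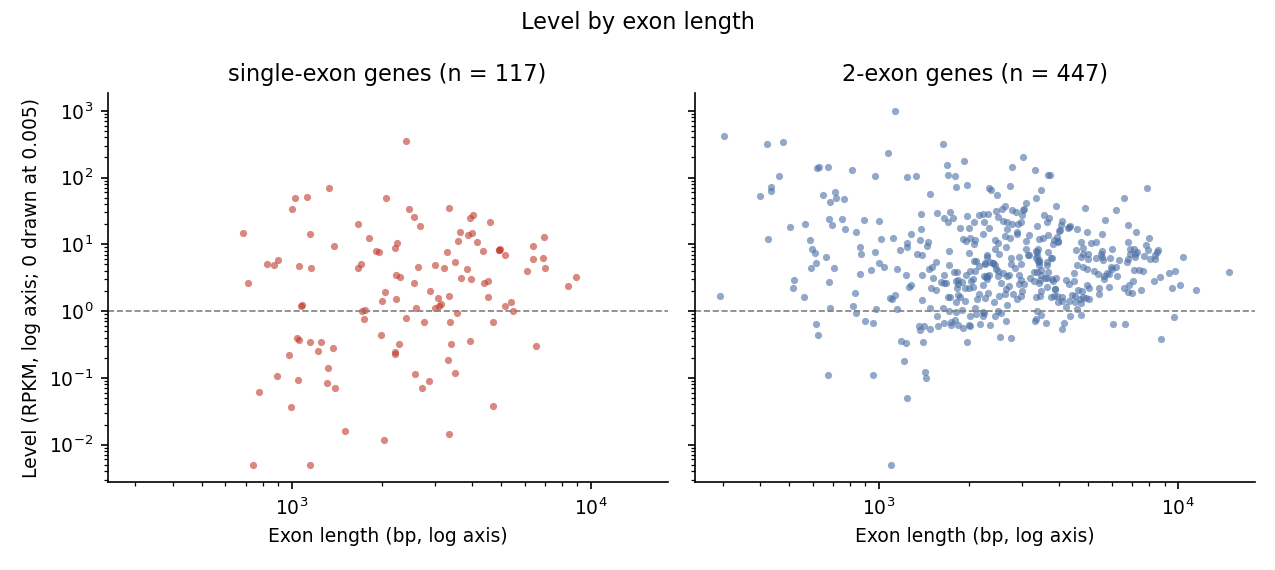
Level (RPKM averaged over both libraries, log axis, with 0 drawn at 0.005) against exon length (bp, log axis), 1 point per gene, for single-exon genes on the left and 2-exon genes on the right. The dashed line marks 1 RPKM, under which lie 39 of 117 single-exon and 57 of 447 2-exon genes.

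Single-exon genes lay farther from other genes of the table than 2-exon genes, but by little where the nearest gene has the adjoining ID number. The median distance to the nearest gene was 16.4 kb (quartiles 4.32 and 54.2 kb), against 10.3 kb (2.34 and 27.9 kb) for 2-exon genes and 5.07 kb for all genes. A nearest gene 50 kb away or more was found for 30 single-exon genes (25.6%), 80 of the 2-exon genes (17.9%) and 10.3% of all genes. The nearest gene under 1 kb was found for 13 (11.1%), 72 (16.1%) and 22.3% of the same groups. Distances are to the genes in the table, which holds 65.2% of the 13723 ID numbers of these chromosomes. The nearest gene had the adjoining ID number in 85 single-exon genes (72.6%) and 390 2-exon genes (87.2%), and what lies at the missing numbers is not analysed here. Among these 85 single-exon genes the median distance was 8.16 kb, against 7.91 kb among these 390 2-exon genes and 4.01 kb among 8052 of all genes.

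Single-exon genes far from others had lower levels than those with a close neighbour. With the nearest gene 50 kb away or more, 30 single-exon genes had a median of 0.774 RPKM and 80 2-exon genes had 4.22 RPKM. Levels under 1 RPKM were found in 16 of those single-exon genes (53.3%) and in 8 of those 2-exon genes. With the nearest gene under 5 kb away the medians were 4.31 RPKM in 35 single-exon genes and 6.57 RPKM in 162 2-exon genes, and at 5 to 50 kb they were 2.80 RPKM in 52 single-exon genes and 3.90 RPKM in 205 2-exon genes. The remote genes were not shorter, with a median exon of 2612 bp, against 2235 bp for those with a gene under 5 kb away. Restricted to genes with at least 10 reads, the medians at 50 kb or more were 1.23 RPKM in single-exon and 4.28 RPKM in 2-exon genes. Without chromosome 33 they were 0.907 RPKM and 4.25 RPKM for these groups.

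**Figure D3:**
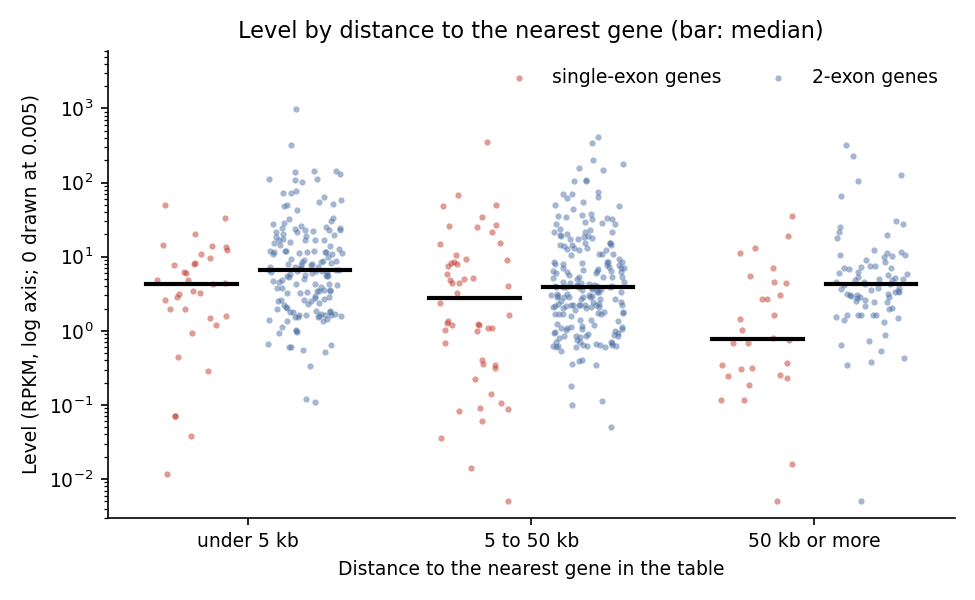
Level (RPKM averaged over both libraries, log axis, with 0 drawn at 0.005) of each single-exon gene (red, left) and 2-exon gene (blue, right) in 3 classes of distance to the nearest gene in the table. Black bars are medians, which for single-exon genes are 4.31, 2.80 and 0.774 RPKM from the nearest to the farthest class and for 2-exon genes 6.57, 3.90 and 4.22 RPKM.

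The most remote single-exon gene, at 75464382 to 75468336 on chromosome 4, lay 834 kb from any other in the table. It had 2.75 RPKM in library B and 3.37 RPKM in library A. On chromosome 5, 3 single-exon genes follow each other in the table at 64013742, 64532154 and 65436728, at distances of 516 kb and 902359 bp. Their ID numbers do not adjoin, and what lies at the missing numbers is not analysed here. These 3 genes had 34, 33 and 24 reads in library B and 4, 6 and 13 reads in library A. The first and second both have an exon of 2215 bp on the plus strand. Sequences were not compared, and featureCounts as run leaves out multi-mapping reads, so the counts of both genes are uncertain if they are copies of each other. The gene at 110296655 to 110301830 on chromosome 2, with 1603 reads in library B and 677 in library A, had 6.97 RPKM at 135 kb from its nearest gene, the highest level beyond 100 kb.

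The genes next to single-exon genes had levels close to those next to 2-exon genes. Their median was 9.85 RPKM, against 10.6 RPKM for genes next to 2-exon genes and 10.03 RPKM over the nearest genes of all genes. The nearest gene was the higher one of the pair in 71.8% of single-exon genes and 63.3% of 2-exon genes. It had a median of 8 exons beside single-exon genes and 9 beside 2-exon genes. Across the 117 single-exon genes Spearman's rho of level with the level of the nearest gene was 0.315, against 0.106 across 2-exon genes and 0.107 across all genes. It was 0.383 over the 35 single-exon genes with a gene under 5 kb away and 0.249 over the other 82. The 2-exon genes also had the higher rho at short distance, 0.195 over 162 genes under 5 kb and 0.072 over the other 285. The 24 single-exon genes of 10 RPKM or more had nearest genes with a median of 18.3 RPKM, those of 1 to 10 RPKM 7.16 RPKM and those under 1 RPKM 6.99 RPKM. For 2-exon genes the same classes had 13.7, 9.57 and 10.4 RPKM, so the highest class also had the highest neighbours.

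Among the 13 single-exon genes within 1 kb of another gene, 11 had levels of 4.31 to 33.2 RPKM. The other two, on chromosome 33, are each other's nearest gene. By strand, 5 of the 13 converged with the nearest gene, 4 diverged from it, 3 lay downstream of it on the same strand and 1 upstream. The gene at 12255981 to 12257358 on chromosome 12 begins 98 bp beyond a gene of 21 exons on the same strand and had 9.46 RPKM, against 27.8 RPKM in that gene. At 13169914 to 13174281 on chromosome 13, a gene 321 bp downstream of a gene of 4 exons had 8.01 RPKM, against 175.8 RPKM in its neighbour. At 12493505 to 12497365 on chromosome 18, 104 bp downstream of a gene of 2 exons, the levels were 4.31 RPKM and 5.48 RPKM in its neighbour. Strand was not used in counting, so reads of overlapping or unlisted transcripts on either strand would be counted with these genes, and their part in the levels was not tested. The closest pair, 55 bp apart and divergent, was at 14275785 to 14282706 on chromosome 21, with 6.22 RPKM beside 4.10 RPKM in its neighbour of 5 exons.

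Some single-exon genes lay next to each other in the table. The nearest gene had 1 exon in 7 of 117 cases (5.98%), against 5 of 447 for 2-exon genes (1.12%) and 1.14% for all genes. Along the chromosomes 9 pairs of single-exon genes were adjacent in the table. The only run of 3 within 50 kb of each other was on chromosome 1, where the genes lie between 44101077 and 44144541, a stretch of 43.5 kb, with exons of 712 to 1159 bp. The gene at 44101077 had 235 reads and 6.22 RPKM in library B and 101 reads and 5.61 RPKM in library A. The gene at 44141048 had 220 reads and 4.53 RPKM in library B and 102 reads and 4.40 RPKM in library A. The last, at 44143830, had 59 reads and 1.98 RPKM (1.30 to 2.79) in library B and 47 reads and 3.30 RPKM (2.05 to 4.85) in library A. A further single-exon gene, at 44033824 to 44034650, precedes them in the table by 66426 bp and had 5.07 RPKM in library B and 5.20 RPKM in library A. The 4 genes are short, within 712 to 1159 bp, and their mean levels lay between 2.64 and 5.92 RPKM. Of these 4, only the genes at 44141048 and 44143830 have adjoining ID numbers. The others are neighbours in the table alone, and what lies at the missing numbers is not analysed here.

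Each of the 23 chromosomes carried at least 1 single-exon gene, and chromosome 33 carried the most for its size. There, 8 of 78 genes in the table (10.3%) had 1 exon. On the other 22 chromosomes single-exon genes made up 0.351% to 2.15% of genes. The 2-exon genes, 7 in number (8.97%), also had their largest share on chromosome 33, against 0.971% to 6.71% on the other chromosomes. The table held 7.25 genes per Mb of chromosome 33, against 18.8, 15.5 and 10.3 on chromosomes 20, 22 and 25, which are of like size. How many ID numbers are missing on each chromosome is not given here, so these are shares of the table alone. The single-exon genes of chromosome 33 had a median of 0.0806 RPKM and its 2-exon genes 9.08 RPKM. Of these 8 genes, 7 were under 1 RPKM. They held 7 of the 39 single-exon genes under 1 RPKM and 5 of the 13 under 0.1 RPKM. The exception, at 5708234 to 5710049, had 993 reads in library B and 433 in library A, with a level of 12.5 RPKM, and lies 426 bp from a convergent gene with 87.2 RPKM. The neighbouring pair at 5435379 and 5439029, 925 bp apart, had 8 and 11 reads in library B and 4 and 2 reads in library A. Without chromosome 33 the medians were 3.06 RPKM in 109 single-exon genes and 4.57 RPKM in 440 2-exon genes, a ratio of 0.670.

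The single-exon median was below the 2-exon median on 14 of the 23 chromosomes. Chromosome 20 was among the others, with 27.4 RPKM as the median of 4 single-exon genes and 9.82 RPKM as that of 4 2-exon genes. Chromosome 7 was another, with 7.89 RPKM in 3 single-exon genes and 3.16 RPKM in 20 2-exon genes. Besides the 2 abundant genes of chromosome 20 given above, its single-exon genes at 7789429 and 1982722 had 4.78 and 2.82 RPKM. Of the 8 chromosomes with at least 5 genes of both kinds, the single-exon median was the lower one in 5. Position along the chromosome differed little. The outer 10% at each end, measured to the last gene of the table, held 23.1% of single-exon genes, 22.1% of 2-exon genes and 18.9% of all genes, and 53.0% of single-exon and 54.4% of 2-exon genes lay on the plus strand.

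**Figure D4:**
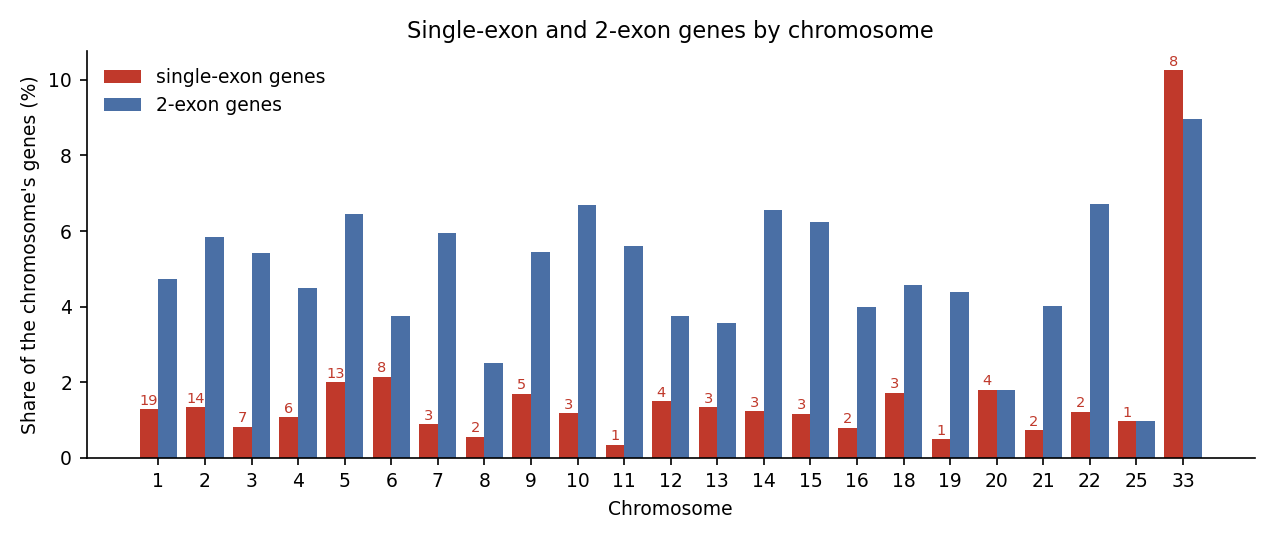
Share of each chromosome's genes (percent, vertical axis) with 1 exon (red, left, with the number of genes above the bar) and with 2 exons (blue, right) on 23 autosomes. Chromosome 33 has the largest share of both, with 8 single-exon genes, 10.3% of its 78 genes in the table, and 7 2-exon genes, 8.97%.

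Single-exon genes, like other genes, had closely similar shares of both libraries. Because the makeup of each library is uncertain, the ratios are not read as likeness or difference between organs. For the 101 genes with at least 10 reads the log2 ratio (library B over library A) had a median of 0.04, against 0.02 in 441 2-exon genes and -0.01 in all genes of these chromosomes. The ratio was above 0 in 57 of the 101 genes and below 0 in 44. Genes at least 2-fold apart numbered 3 with more in library B (2.97%), where 0.489% of all 11256 genes with that many reads did so. In the other direction it was 1 gene (0.99%), where 0.267% of all genes did so. Of 602 genes of the table with 10 to 99 reads in the library with more, 7.14% were 2-fold higher in library B, and for library A the share was 4.15%. All 4 single-exon genes were among the 25 with so few reads, where they made up 12% and 4%.

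Of these 4, the gene at 74588026 to 74590014 on chromosome 1 had 53 reads in library B and 10 in library A, a ratio of 2.35 (0.936 to 8.26). The genes of chromosome 5 at 64013742 and 64532154 given above had ratios of 3.31 (0.961 to 36.1) and 2.33 (0.727 to 13.6). On chromosome 6 the gene at 35241886 to 35242944 had 8 reads in library B and 12 in library A, 2.60-fold higher in library A (0.747 to 15.2). Its exon of 1059 bp is as long as that of the single-exon gene at 7789429 on chromosome 20, and sequences were not compared. The ratios include the prior count described below, whereas the intervals were computed without it. All 4 intervals include 1, so the differences were not detectable at this depth.

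None of the 76 single-exon genes with at least 100 reads was 2-fold apart, with log2 ratios from -0.41 to 0.41, and 0.16% of all 10654 such genes were. Their median absolute log2 ratio was 0.11, against 0.11 in 2-exon genes and 0.07 in all genes of these chromosomes, which had more reads per gene. The largest ratio toward library B was that of Apl_15G0004200, the last gene in the table on chromosome 15 at 19908399 to 19913118 on the plus strand. It had 154 reads or 3.67 CPM in library B and 55 reads or 2.75 CPM in library A, 1.33-fold (0.866 to 2.19). Apl_11G0001870 (chromosome 11, minus strand, 11769817 to 11772826) had 699 reads or 16.7 CPM in library B and 254 reads or 12.7 CPM in library A, 1.31-fold (1.07 to 1.62). Toward library A, the largest among genes with at least 100 reads in that library were Apl_4G0006590 and Apl_9G0002430. The first lies on the minus strand of chromosome 4 (69339498 to 69342057), the second on the plus strand of chromosome 9 (14414888 to 14420379). Between them in ratio was the gene at 4833379 to 4835612 on chromosome 3. It had 120 reads in library B and 76 in library A, 1.32-fold higher in library A (0.861 to 2.03). The gene of chromosome 4 had 244 reads in library B, against 155 in library A, and was 1.33-fold higher in library A (0.983 to 1.78). The gene of chromosome 9 had 204 reads in library B, against 126 in library A, and was 1.29-fold higher in library A (0.932 to 1.79). Intervals above 1 were found for 5 of the 101 genes, where 6.25% of all 11256 genes had one, and below 1 for 1 gene, where 5.3% of all genes had one. Among 441 2-exon genes, 38 had an interval above 1 and 20 had one below 1. Median reads in library B were 244 in single-exon genes, 565 in 2-exon genes and 1600 in all genes of these chromosomes. Fewer reads give wider intervals, so these counts do not compare the groups at equal depth. The 10 genes with the highest level were all within 1.2-fold between the libraries. These ratios have no replicate check.

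**Figure D5:**
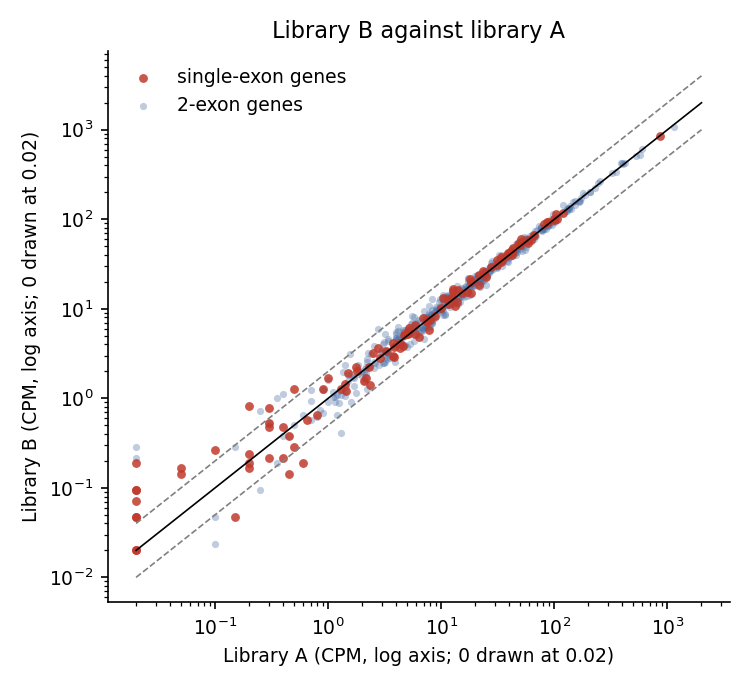
CPM in library B (vertical) against library A (horizontal), both on log axes with 0 drawn at 0.02, for single-exon genes (red) and 2-exon genes (blue). The solid line marks equal values and the dashed lines a 2-fold difference, beyond which single-exon genes lie at low CPM. Points are drawn without the prior count, so more lie beyond these lines than the 4 genes 2-fold apart with it. Those 4, of at least 10 reads, had at most 53 reads.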

How the data were processed

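The authors deposited, for each gene, whole counts of reads over its exons, which featureCounts 2.1.1 made in paired-end mode, per the file headers. The submitters' processing notes name HISAT2 and SAMtools, with no version. The build's name and the parameters of alignment and trimming were not given in the sources used here. Beyond the paired-end flag, the recorded command sets no option to count pairs as fragments, to use strand or to admit multi-mapping or multiply assigned reads, so mates were counted separately and strand was ignored. Coordinates are 1-based on the study's own assembly.

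Both tables list the same 11383 genes, with 0 overlapping spans. Each table was taken for the library it was deposited under, since the alignment names in the headers differ from the library names in the labels. Counts were scaled to CPM by library total and TMM factor (1.00 in both libraries; edgeR 4.0.16, R 4.3.3) and divided by exon length for RPKM, and log2 ratios (library B over library A) were taken after adding a prior count of 2, for genes with at least 10 reads in 1 or both libraries. Ratios have exact conditional binomial 95% intervals from read pairs, computed without the prior count that the ratios themselves include. Levels have exact Poisson intervals from read pairs. On simulated counts of 11256 genes, the 2-fold rule found 100 of the 100 that had been set 8-fold apart. These were drawn from genes with at least 100 reads over both libraries together. The check thus does not cover genes with fewer reads or differences near 2-fold.

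The genes, the classes of length and distance and the values compared were chosen with earlier results of these data known. IDs are printed for the 2 genes of highest level. They are also printed for the 2 largest ratios in each direction with at least 100 reads in the library where the gene was higher. Other genes are given by position: the rest of the 10 highest, the 5 with most reads, the 3 longest and shortest, those without reads or 2-fold apart, and runs of 3 within 50 kb. Further genes were chosen after their values were seen.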

Additional observations from a re-analysis of the deposited data

How the results depend on the processing

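Of 65 alternatives to the results over genes, 51 left the value within its interval or the count within 1.5 times, 14 moved it and 0 reversed its direction. Intervals of medians here are binomial ones from the order of the genes. They are wide, 1.26 to 4.42 RPKM for the median level and 0.275 to 0.969 for the ratio to 2-exon genes. The ratio's interval takes the 2-exon median as fixed. Values of 3.98 RPKM and 0.825, over genes with at least 10 reads, thus counted as within. Staying within such an interval is a weak check, since genes are not replicates. The 3 genes 2-fold higher in library B became 0 with a 4-fold rule, 1 with at least 50 reads, 8 with no minimum of reads and 0 by the nearer bound of the interval. The 1 gene higher in library A became 0 with a 4-fold rule, 0 with at least 50 reads, 2 with no minimum and 0 by the nearer bound. The share of single-exon genes with at least 10 reads was 86.3%, and it was 76.1% with at least 50 reads and 98.3% with at least 1 read. These follow from the stricter or looser rules. The median distance became 8.16 kb over the 85 single-exon genes whose nearest gene has the adjoining ID number, close to the 7.91 kb of 2-exon genes chosen likewise, a value added after seeing the data. The 10 genes with most reads held 55.7% of reads averaged over the libraries, 56.0% in library A alone, 52.5% over all autosomes and 41.4% without the most abundant gene, where the last was chosen after seeing the data. The settings without chromosome 33, and the classes of length and distance with at least 10 reads, were also chosen after seeing the data. For the 6 genes printed by ID all 12 alternatives stayed within the interval. No paired analysis was possible because the 2 libraries carry different labels and no replicate numbers. Depth limits the ratios: the median absolute log2 ratio was 0.35 in the 25 single-exon genes with 10 to 99 reads and 0.11 in those with at least 100.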
